A study of Mus musculus with 36 samples.

Results

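Naive Shank3 mutant mice and their WT littermates were compared through the ribosome-bound RNA of cortical pyramidal neurons, in 7 libraries of each genotype. These 14 libraries, of 36 in the series, were chosen by their labels as the mice that met no swim stress. The mutants were Shank3(ΔC/+); HA-Rpl22(f/+);Camk2a-Cre(+/-), which carry 1 mutated and 1 intact copy of Shank3, and the controls were Shank3(+/+);HA-Rpl22(f/+);Camk2a-Cre(+/-). Both genotypes thus carried the floxed ribosomal tag and the Cre driver. The strain was labelled C57BL6JL, and the tissue cortex. The extraction text names HA-Rpl22(f/f) where the genotype labels have HA-Rpl22(f/+). Age and sex are not given in the sources used here. Cohort 1 held replicates 1 to 3 of each genotype and cohort 2 held replicates 4 to 7, and each genotype effect was taken within cohort and then averaged over both cohorts. The other 22 libraries came from mice of the same genotypes after a forced swim and serve below only as a point of comparison. They were taken 1 h after the swim in cohort 1 and 4 h after it in cohort 2. Time after the swim and cohort thus cannot be told apart. A swim effect below is the mean of the genotype effects at 1 h and 4 h.

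Shank3 is a scaffold of the postsynaptic density, the protein sheet beneath excitatory synapses, where it links glutamate receptors through other scaffolds to the actin cytoskeleton. Loss of a copy in humans is the main cause of the neurological features of Phelan-McDermid syndrome, and SHANK3 is among the genes most firmly tied to autism. In the ΔC allele the mutation removes the C-terminal part of the protein. RiboTag mice express an HA-tagged ribosomal protein Rpl22 only where Cre has acted, so that an anti-HA antibody pulls down ribosomes, and the RNA bound to them, from a chosen class of cells. Camk2a-Cre acts mainly in excitatory forebrain neurons, and the recovered RNA reports on transcripts bound to ribosomes, not on total RNA or on protein. In such pulldowns, fewer cells of a type and less ribosome-bound RNA per cell cannot be told apart.

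Total counts ran from 0.884 to 1.58 M (M, mega) in the WT and from 0.971 to 1.81 M in the Shank3 libraries (exact two-sided permutation within cohort, p = 0.297). Ribosomal RNA rows took 38.6% of the counts in Shank3 replicate 7 and 13.5% in Shank3 replicate 6, both of cohort 2, and from 0.852% to 6.41% in the other 12 libraries. Rows with an exon opposite an exon of another gene were 16.4% of all rows and held 85.3% of the naive counts. Among pairs of a coding gene and an antisense row, the coding rows held only 10.7% to 15.0% of the pair's counts, a measure called the pair share here (exact permutation p = 0.734 between genotypes). Whether read strand entered the counting, and with which setting, is not given in the sources used here, so for a gene with an exon opposite another gene, reads of the gene and of its partner cannot be told apart. The kit marks strand, and a count with the opposite strand setting would give low coding shares in such pairs. Whether that setting was used was not tested. Under it every row, including the 68.8% of rows with no gene opposite, which held 11.6% of the naive counts, would mainly hold reads of the other strand. Each gene value below, those of Ncam2 and Shank3 included, is thus the value of the deposited row under that gene's name. Camk2a and Nrgn, genes of excitatory neurons, led the pyramidal marker list, with 5057 and 2811 counts over the WT and 6040 and 3010 counts over the Shank3 libraries. The summed level of the 18 pyramidal markers ran from 1474 to 2256 CPM (counts per M counts of scaled library size) in the WT and from 1729 to 2110 CPM in the Shank3 libraries (exact permutation p = 0.171). The 8 hippocampal markers ran from 335 to 637 CPM in WT and from 264 to 479 CPM in Shank3 libraries (exact p = 0.0671), most of it from Cabp7, a row with an exon opposite Zmat5. The 17 interneuron markers ran from 91.1 to 128 CPM in WT and from 78.7 to 119 CPM in Shank3 libraries (exact p = 0.16), mostly from Dlx1 and Cck. The defining microglial gene P2ry12, the endothelial gene Cldn5 and the haemoglobin genes Hba-a1 and Hbb-bs had 0 counts in all 14 libraries. Refits with the pair share as a covariate and without the ribosomal RNA rows are given below as alternatives. The part of these measures in the genotype effects was not otherwise tested.

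**Figure D1:**
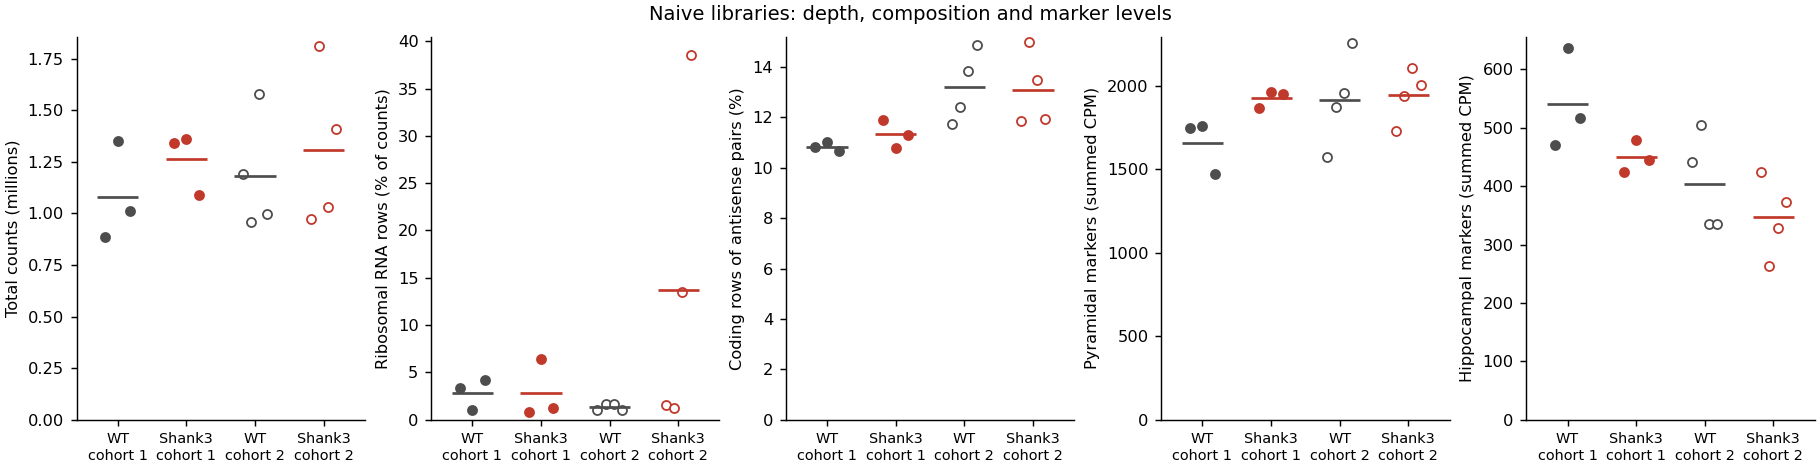
Total counts, the percent of counts on ribosomal RNA rows, the pair share and the summed CPM of 2 marker lists in each naive library, by genotype and cohort. Filled points are cohort 1, open points cohort 2, and lines are group means; only Shank3 replicates 6 and 7 rise above 10% ribosomal RNA.

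The genotype effect in naive mice was small against the spread between libraries. Of 11341 genes tested, 1 passed an adjusted p of 0.05 (0.00882% of the genes; edgeR quasi-likelihood test, Benjamini-Hochberg adjustment). That gene was Ncam2, a cell adhesion molecule of axons and synapses, and it was higher in Shank3 mice. At an unadjusted p under 0.05, 539 genes (4.75%) differed, which is close to the share that this threshold passes in the absence of any effect. Of these, 417 were higher (3.68% of the genes tested) and 122 lower (1.08%) in Shank3 mice. This split of 77.4% higher moved with the scaling, to 65.3% with relative log expression factors and to 56.2% with library totals alone. It was also lower under choices that change more than the scaling, at 64.9% with DESeq2, 69.4% without the ribosomal RNA rows, 61.2% with the pair share as a covariate and 66% in a fit of the 14 naive libraries alone. The median log2 fold change over all genes was 0.0263. The median standard error was 0.52 for genes below a mean log2 CPM of 3, 0.295 between 3 and 5, and 0.2 above 5, so that a low-count gene needed a change of several-fold to stand apart.

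The cohorts gave separate readings of the same contrast and shared no library. In cohort 1, 548 genes (4.83%) and in cohort 2, 344 genes (3.03%) had an unadjusted p under 0.05, and 0 passed the adjusted threshold in either cohort. Across the 11341 genes, the effects of the cohorts had a Pearson correlation of 0.0629 and a Spearman correlation of 0.0715, and 53.9% of genes had the same sign. Among the 3693 genes whose mean log2 CPM was 5 or more, these values were 0.191, 0.211 and 58.6%. Genes are not independent replicates, and these correlations describe only these libraries. Of the 548 genes of cohort 1, 52.9% had the same sign in cohort 2, near the share of all genes. With an unadjusted p under 0.05 in each cohort stood 24 of the 11341 genes, of which 20 had the same sign. How many would do so in the absence of any effect was not tested. Among these 20 were Ncam2, Acat2, Stk24, Dhx36, Ell2, Eif3g, Polr3gl and Ten1, which return below.

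**Figure D2:**
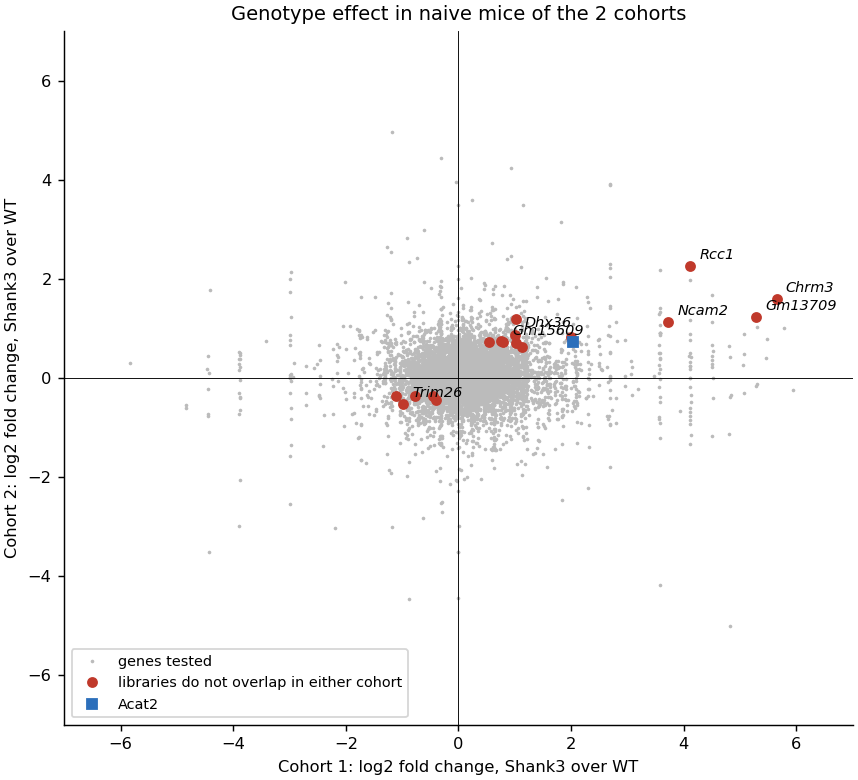
Log2 fold change of Shank3 over WT in cohort 1 (x axis) and cohort 2 (y axis) for the 11341 genes tested (grey). Red points are the 17 genes whose Shank3 libraries all lay on 1 side of the WT libraries in each cohort, and the blue square is Acat2; the cloud of grey points shows little slope.

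Ncam2 (ENSMUSG00000022762; mm10 chromosome 16, 81200697 to 81626828, plus strand) encodes an immunoglobulin-family adhesion molecule best known for its role in the sorting of olfactory axons and in the upkeep of synapses. Its counts were 1, 0 and 0 in the WT and 5, 8 and 6 in the Shank3 libraries of cohort 1, and 3, 4, 7 and 5 against 7, 24, 9 and 4 in cohort 2. On the CPM scale this was 1.73, 0 and 0 CPM in the WT and 5.06, 9.30 and 7.59 CPM in the Shank3 libraries of cohort 1, and 3.46, 5.27, 4.76 and 4.98 CPM against 9.27, 13, 10.7 and 5.73 CPM in cohort 2. The genotypes did not overlap in either cohort, and the lowest Shank3 library of cohort 2, at 5.73 CPM, lay just above the highest WT library, at 5.27 CPM (the values are levels, scaled for library size). Ncam2 rose in the mutants, with a log2 fold change of 2.43 ± 0.40 (SE; adjusted p = 0.00736, edgeR quasi-likelihood test, 7 against 7 libraries). The fitted change was 3.73 in cohort 1 and 1.13 in cohort 2, and the difference between cohorts had an unadjusted p of 0.0253 and an adjusted p of 1. In cohort 1 the Shank3 libraries summed to 19 counts and the WT libraries to 1 count, a scaled ratio of 15 with an exact 95% binomial interval of 2.39 to 623. In cohort 2, 44 counts stood against 19, a ratio of 2.29 (interval from 1.31 to 4.15), and these intervals cover counting error only. After the swim the genotype effect on Ncam2 was 0.25 on the log2 scale, and the naive effect less the swim effect was 2.18 (unadjusted p = 5.08e-05, adjusted p = 0.576 over all genes). The call rests on few counts: it was lost with DESeq2 (adjusted p = 0.76), with library totals as the scaling (0.0574), without WT replicate 2 (0.665), without Shank3 replicate 2 (0.0865) and without Shank3 replicate 5 (0.12). The fitted change in those 5 settings was 2.44, 2.36, 2.08, 2.32 and 2.31 in that order, and without WT replicate 1 it was 3.93. With the stricter filter on low counts, in fits of the 14 naive libraries and in either cohort alone, Ncam2 did not pass the filter and was not tested.

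Ncam1, its closest relative in the list of 53 neural adhesion molecules, had a log2 fold change of 0.20 ± 0.32 (SE; adjusted p = 1). Of the 45 tested members of that list, 2 had an unadjusted p under 0.05 (4.44%, against 4.75% of all genes). These were Ncam2 and Lsamp, the gene of a GPI-anchored protein of limbic neurons. Lsamp stood at a log2 fold change of 0.72 ± 0.35 with an adjusted p of 1. The list's median was 0.0693, against 0.0263 for all genes, with 26 members above 0 and 19 below.

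The mutated gene itself was read by few counts. The Shank3 row (ENSMUSG00000022623; chromosome 15, 89499623 to 89560261, plus strand) held 4, 10 and 6 counts in the WT and 10, 9 and 13 in the Shank3 libraries of cohort 1, and 5, 6, 8 and 6 against 12, 30, 13 and 9 in cohort 2. The cohort 1 libraries overlapped, and in cohort 2 all Shank3 libraries lay above all WT libraries. The log2 fold change was 0.83 ± 0.31 (SE; unadjusted p = 0.0115, adjusted p = 1). By cohort it was 0.36 in cohort 1 and 1.3 in cohort 2. After the swim it was 0.56 ± 0.19, in libraries that the naive contrast did not use. A count over the whole gene does not read the deleted part of the ΔC allele, so it does not check the genotype labels.

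Opposite Shank3 lies Gm15609 (ENSMUSG00000086602; chromosome 15, 89520096 to 89523677, minus strand), annotated as a long intergenic noncoding RNA and chosen here after its values were seen. Exon 2 of Gm15609 spans the whole of Shank3 exon 10, a stretch of 271 bases at chr15:89521103-89521373 of mm10 where reads of both genes can fall. This stretch is shown because the rows of Shank3 and Gm15609 share it. It is given on the Shank3 strand, 5′ to 3′, from the GENCODE vM21 transcript of Shank3. Capitals mark exon 10, and the lower-case letters are the 10 spliced bases on either side.
Shank3 exon 10: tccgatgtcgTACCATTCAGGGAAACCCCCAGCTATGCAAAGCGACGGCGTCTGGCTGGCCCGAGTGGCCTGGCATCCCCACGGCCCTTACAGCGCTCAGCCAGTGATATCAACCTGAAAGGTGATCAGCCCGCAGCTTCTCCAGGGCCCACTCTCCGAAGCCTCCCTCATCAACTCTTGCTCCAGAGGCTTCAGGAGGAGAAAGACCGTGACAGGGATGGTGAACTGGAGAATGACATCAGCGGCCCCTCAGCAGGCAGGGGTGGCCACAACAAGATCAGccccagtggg

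Gm15609 held 60, 91 and 78 counts in the WT and 177, 182 and 144 in the Shank3 libraries of cohort 1, and 69, 60, 111 and 82 against 114, 158, 91 and 126 in cohort 2. Scaled, these were 104, 105 and 122 CPM in the WT and 179, 212 and 182 CPM in the Shank3 libraries of cohort 1, and 79.6, 79, 75.5 and 81.7 CPM against 151, 85.4, 108 and 180 CPM in cohort 2. Every Shank3 library lay above every WT library of its cohort, and the WT libraries of a cohort lay close together. The log2 fold change was 0.75 ± 0.21 (SE), with 0.79 in cohort 1, 0.72 in cohort 2 and 0.60 after the swim, in libraries that the naive contrast did not use. It did not pass the adjusted threshold (unadjusted p = 0.000925, adjusted p = 0.656). With the pair share as a covariate it passed, with an adjusted p of 0.000119 in all 36 libraries and of 0.000546 in the 14 naive libraries, where it was the only gene to pass. The covariate is a further choice of model, and in the other 28 alternatives Gm15609 did not pass. Its log2 fold change ran from 0.66 to 0.84 over the 30 alternatives. Whether these counts come from the Gm15609 or the Shank3 strand cannot be told apart.

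Around the mutated locus, 164 genes within 10 Mb of Shank3 on chromosome 15 were tested. None passed the adjusted threshold, and 6 (3.66%, against 4.75% of all genes) had an unadjusted p under 0.05. Higher in Shank3 mice were Atxn10, with a log2 fold change of 0.39 ± 0.17 (SE), Sco2, a chaperone of cytochrome oxidase assembly, with 0.52 ± 0.20, Prpf40b with 0.60 ± 0.28, Mief1, a mitochondrial fission factor, with 1.44 ± 0.63, and Gm15609. Dennd6b, a regulator of Rab GTPases, was at -0.70 ± 0.31. The adjusted p of each of the 5 coding genes was 1, and the median of the 164 was -0.00687.

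Among genes of sterol metabolism Acat2, the cytosolic acetyl-CoA acetyltransferase at the first step of cholesterol synthesis, came next to Ncam2 by p. Its level was 6.92, 4.60 and 6.28 CPM in the WT and 30.3, 24.4 and 16.5 CPM in the Shank3 libraries of cohort 1, and 17.3, 7.90, 7.48 and 7.97 CPM against 9.27, 22.2, 10.7 and 21.5 CPM in cohort 2. The groups did not overlap in cohort 1, and in cohort 2 WT replicate 4 lay above Shank3 replicates 4 and 6. The log2 fold change was 1.38 ± 0.29 (SE; adjusted p = 0.135), with 2.04 in cohort 1, 0.73 in cohort 2 and 0.11 after the swim. It passed the threshold without WT replicate 4 (adjusted p = 0.0223), without a filter on low counts (0.0115) and with the pair share as a covariate (0.0284). Of 27 tested genes of sterol synthesis and uptake, Acat2 and Fdft1, the squalene synthase, had an unadjusted p under 0.05 (7.41%, against 4.75% of all genes). Fdft1 had a log2 fold change of 0.65 ± 0.21 and an exon opposite Ctsb. The list as a whole had 14 members above 0 and 13 below, with a median of 0.00994.

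**Figure D3:**
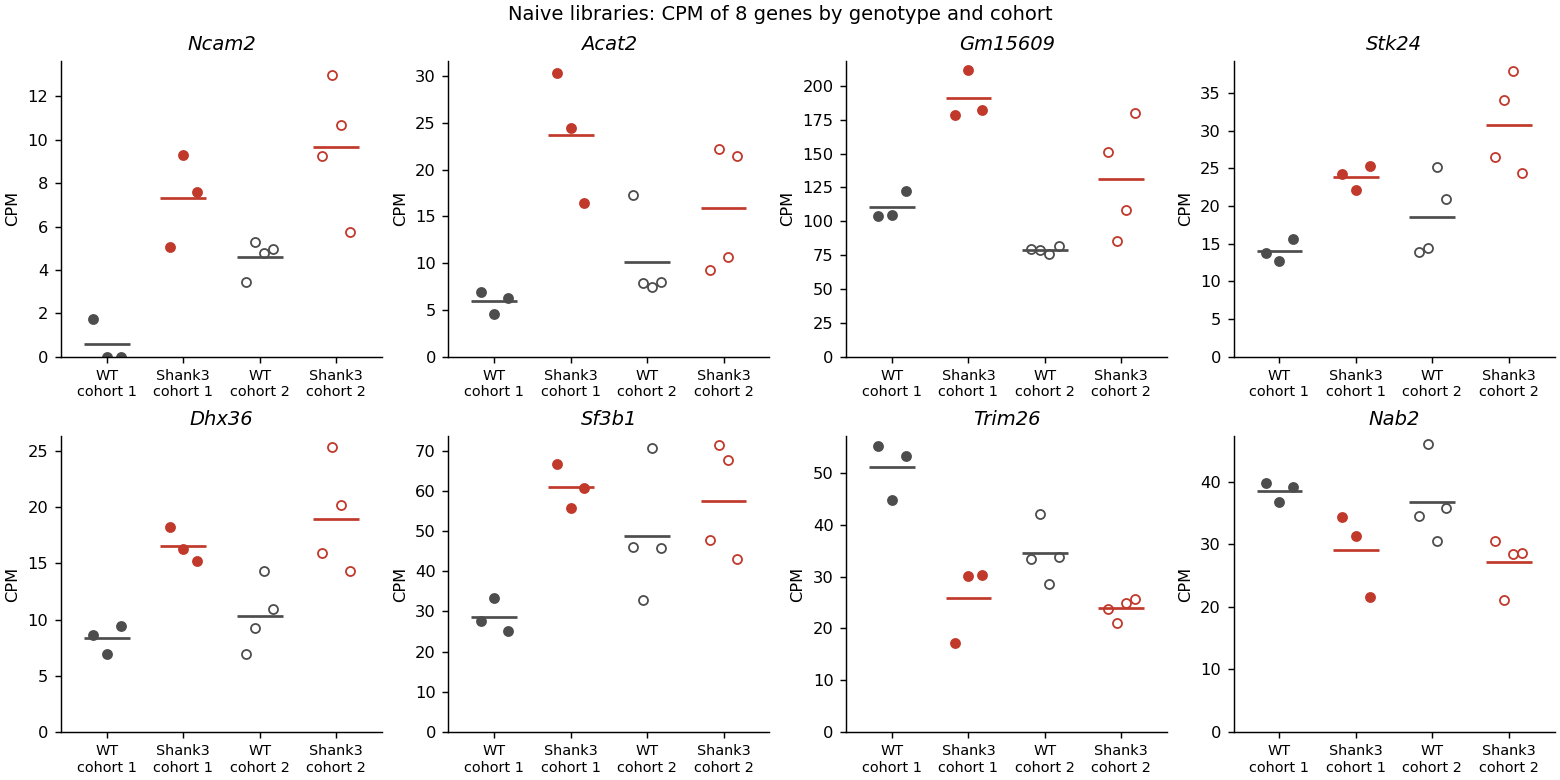
CPM of 8 genes in each naive library, by genotype and cohort; filled points are cohort 1, open points cohort 2, and lines are group means. Ncam2, Gm15609, Dhx36, Trim26 and Nab2 show no overlap between genotypes within a cohort, while the genotypes overlap in cohort 2 for Acat2, Stk24 and Sf3b1.

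The 10 genes with the smallest p on the higher side were Ncam2, Acat2, Mindy3, Atp6v0b, Sf3b1, Stk24, Ell2, Osbpl8, Ubxn7 and Satb1, taken from genes with established names and a mean log2 CPM of 3 or more. Apart from Ncam2 none passed the threshold, and their adjusted p values ran up to 0.646, so the values here describe the top of a ranking. All 10 had the same sign in the cohorts, and in 9 the effect was larger in cohort 1. The ranking used the mean effect over both cohorts, which favours genes of the same sign, so the shared sign is no separate check.
Mindy3, a deubiquitinating enzyme that trims long ubiquitin chains, was at 1.73, 0 and 1.57 CPM in the WT and 9.10, 5.81 and 8.86 CPM in the Shank3 libraries of cohort 1, and 1.15, 2.63, 6.80 and 4.98 CPM against 6.62, 10.3, 5.94 and 4.30 CPM in cohort 2. Its WT libraries of cohort 1 summed to 2 counts against 21, a ratio of 8.29 with an exact 95% binomial interval of 2.03 to 72.9. Ubxn7, an adaptor that links the p97 segregase to ubiquitin ligases, had a log2 fold change of 1.22 ± 0.33 (SE), and WT replicate 1 had 0 counts of it.
Sf3b1, the large subunit of the U2 snRNP branch-site complex, was at 27.7, 33.4 and 25.1 CPM in the WT and 66.7, 55.8 and 60.7 CPM in the Shank3 libraries of cohort 1, and 46.2, 32.9, 70.7 and 45.9 CPM against 47.7, 71.4, 67.7 and 43 CPM in cohort 2. The Shank3 libraries of cohort 1 lay far above the WT libraries, and those of cohort 2 overlapped with them, and the fitted log2 changes were 1.08 and 0.23. Ell2, an elongation factor of RNA polymerase II, had a log2 fold change of 1.00 ± 0.26 (SE), with 0.87 and 1.12 in the cohorts, and an exon opposite 1700037F03Rik.

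Stk24, a Ste20-family kinase, showed the most even effect of this group over the cohorts. Its level was 13.8, 12.7 and 15.7 CPM in the WT and 24.3, 22.1 and 25.3 CPM in the Shank3 libraries of cohort 1, and 13.9, 14.5, 25.2 and 20.9 CPM against 26.5, 34.1, 38 and 24.3 CPM in cohort 2. The genotypes were apart in cohort 1, and in cohort 2 only WT replicate 6 reached above the lowest Shank3 library. The log2 fold change was 0.73 ± 0.19 (SE; adjusted p = 0.534), with 0.77 and 0.70 in cohorts 1 and 2. Osbpl8, a lipid transfer protein at contacts of the endoplasmic reticulum and the plasma membrane, had a log2 fold change of 1.00 ± 0.26 over both cohorts, 1.70 in cohort 1 and 0.29 in cohort 2. Satb1, a chromatin organiser, had 1.05 ± 0.28, and its row has an exon opposite Gm6934. Atp6v0b, a membrane subunit of the vacuolar proton pump, had 0.64 ± 0.16 with an exon opposite Gm12841, and its WT replicate 1 lay far below the other WT libraries at 13.8 CPM.

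On the lower side the 10 genes were Trim26, Polr3gl, Olfm2, Ten1, Rab5a, Vegfa, Rrp8, Cenpb, Fmnl2 and R3hcc1, with log2 fold changes from -0.92 to -0.42 and adjusted p values from 0.656 to 1. None passed the threshold. All 10 had the same sign in the cohorts, which the ranking by the mean effect favours here too. Trim26, a RING-type ubiquitin ligase, was at 55.3, 44.9 and 53.4 CPM in the WT and 17.2, 30.2 and 30.4 CPM in the Shank3 libraries of cohort 1, and 33.5, 42.1, 28.6 and 33.9 CPM against 23.8, 21.1, 24.9 and 25.8 CPM in cohort 2. Its genotypes did not overlap in either cohort, and the fitted log2 change was -0.76 ± 0.21 (SE; adjusted p = 0.656), with -0.99 and -0.53 by cohort and -0.28 after the swim.
Polr3gl, a subunit of RNA polymerase III, was at 72.6, 89.7 and 64.4 CPM in the WT and 49.5, 37.2 and 48.1 CPM in the Shank3 libraries of cohort 1, and 70.4, 60.6, 47.6 and 34.9 CPM against 51.7, 35.2, 20.2 and 24.3 CPM in cohort 2, and its row has an exon opposite Gm16253. Its cohort 1 groups were apart and its cohort 2 groups overlapped. Rrp8, a nucleolar RNA methyltransferase, had a log2 change of -0.58 ± 0.21 (SE) with an exon opposite Ilk. Cenpb, a protein of centromeric DNA, had -0.51 ± 0.19.
Rab5a, the GTPase of early endosomes, had -0.42 ± 0.15, Vegfa, the vascular growth factor, -0.61 ± 0.22, Olfm2, a secreted olfactomedin, -0.73 ± 0.25, and Fmnl2, a formin that builds actin filaments, -0.92 ± 0.34 on the log2 scale. R3hcc1 stood at -0.56 ± 0.22.

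A separate reading asked only whether libraries overlapped. Of the 11341 genes, 12 (0.106%) had every Shank3 library above every WT library in both cohorts, and 5 (0.0441%) had every Shank3 library below. With shuffled genotype labels, a gene's libraries would part fully in either direction with a probability of 0.00143 (1400 arrangements within cohort). The 17 genes stand near that share, so non-overlap alone does not mark a genotype effect. The higher ones were Ncam2, Gm15609, Dhx36, Zfp451, Dusp14, Shprh, Bnip2, Rcc1, Chrm3, Polr1a, Gm13709 and Gm46440, and the lower ones Trim26, Pin4, Nab2, Pcgf1 and Man2a1. With library totals as the scaling the split turned to 2 genes on the higher and 16 on the lower side.
Dhx36, a helicase that unwinds G-quadruplexes in RNA and DNA, was at 8.64, 6.90 and 9.42 CPM in the WT and 18.2, 16.3 and 15.2 CPM in the Shank3 libraries of cohort 1, and 6.92, 9.21, 14.3 and 11 CPM against 15.9, 25.4, 20.2 and 14.3 CPM in cohort 2. The cohort 2 groups nearly touched, at 14.28 CPM in WT replicate 6 and 14.32 CPM in Shank3 replicate 7. Its log2 fold change was 0.94 ± 0.27 (SE; adjusted p = 0.687), 1.01 and 0.88 by cohort. Zfp451, a SUMO ligase, was at 0.64 ± 0.20, Dusp14, a phosphatase of MAP kinases, at 0.76 ± 0.31, Shprh, a ubiquitin ligase of DNA repair, at 0.89 ± 0.38, and Bnip2 at 0.86 ± 0.36, each with an adjusted p of 0.89 or above.
Chrm3, the M3 muscarinic acetylcholine receptor, had 0 counts in the 3 WT libraries of cohort 1 against 9 counts in the Shank3 libraries. The lower end of the exact 95% binomial interval of that ratio was 1.56. With the WT count set to a floor of 3 counts over the group, the ratio was 2.37. In cohort 2 Chrm3 had 19 counts against 6, a ratio of 3.13 with an exact 95% binomial interval of 1.2 to 9.58. Rcc1, the exchange factor of the Ran GTPase, had 3 counts against 0 in cohort 1, which gives no fold at this depth, and 11 against 2 in cohort 2. Gm13709, an antisense row opposite Gpr155, had 7 counts against 0 in cohort 1 and 49 against 21 in cohort 2.
On the lower side Nab2, a corepressor of Egr transcription factors, was at 39.8, 36.8 and 39.2 CPM in the WT and 34.4, 31.4 and 21.5 CPM in the Shank3 libraries of cohort 1, and 34.6, 46.1, 30.6 and 35.9 CPM against 30.5, 21.1, 28.5 and 28.6 CPM in cohort 2. Its cohort 2 groups nearly met, at 30.6 CPM in WT replicate 6 and 30.5 CPM in Shank3 replicate 4. Its log2 fold change was -0.42 ± 0.17 (SE; adjusted p = 1), and its row has an exon opposite Gm16229. Pin4, a peptidyl-prolyl isomerase, had -0.41 ± 0.20, Pcgf1, a component of a Polycomb repressive complex, -0.56 ± 0.26, and Man2a1, a Golgi mannosidase, -0.74 ± 0.28, each with an adjusted p of 1.

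The genotype effect after the swim, in 22 libraries that the naive contrast did not use, gave a second look at the same genes, although the ranking that picked them enters 1 side of the comparison. The 10 higher genes had swim effects from -0.0762 to 0.247 on the log2 scale, with a median of -0.00112, and 0 of 10 had an unadjusted p under 0.05. Of the 10, 5 had the same sign as in naive mice. The 10 lower genes had swim effects from -0.277 to 0.403 with a median of -0.0712, and 7 of 10 kept the naive sign; 1, Fmnl2, had an unadjusted p under 0.05, with an effect of 0.40 opposite to that in naive mice. Tested over all genes, the naive effect less the swim effect passed an adjusted p of 0.05 for 0 of 11341 genes, with 377 (3.32%) at an unadjusted p under 0.05 (edgeR quasi-likelihood test). The smallest p values of that difference belonged to Ncam2, D430042O09Rik, Acat2, Atp6v0b and Zfpm1. Zfpm1, a cofactor of GATA factors, had a naive log2 effect of -1.69 ± 0.51 and a swim effect of 0.49, and D430042O09Rik had -0.95 ± 0.36 and 0.64. Over all genes the naive and swim effects had a Pearson correlation of 0.0743 and a Spearman correlation of 0.103, and over the 3693 genes whose mean log2 CPM was 5 or more they had 0.33 and 0.367.

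**Figure D4:**
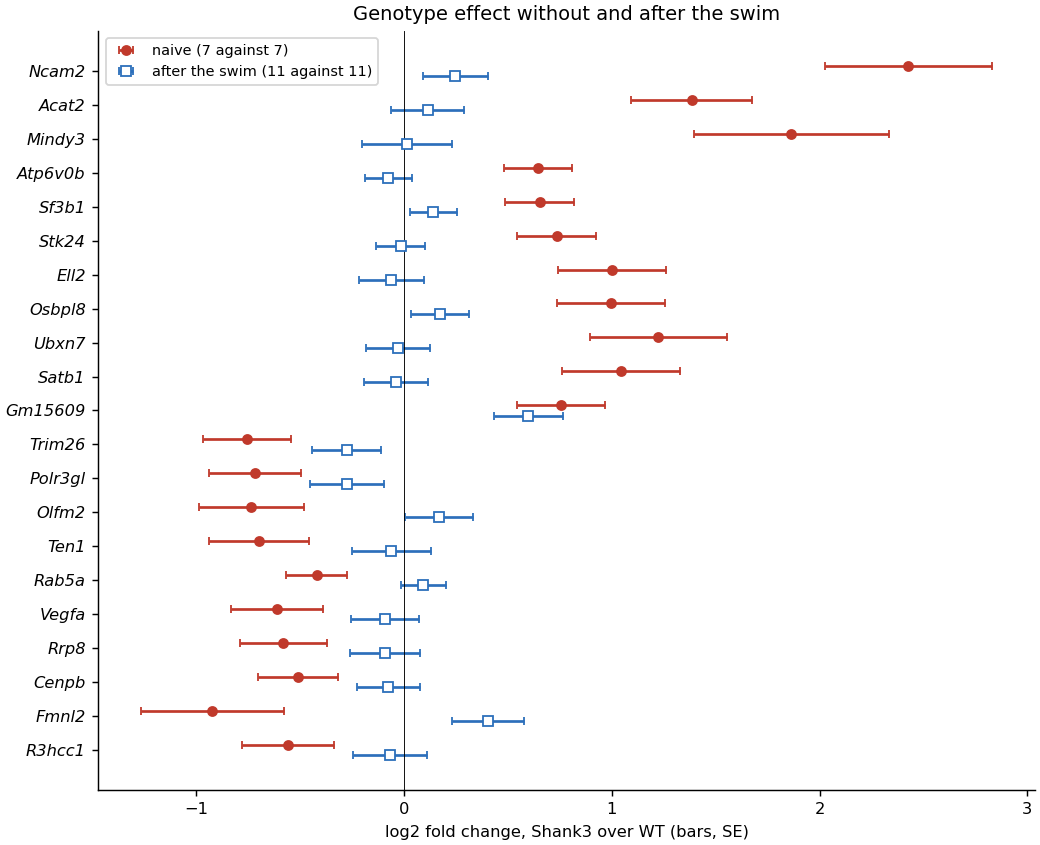
Log2 fold change of Shank3 over WT with its SE in naive mice (filled red circles, 7 against 7 libraries) and after the swim (open blue squares, 11 against 11) for the 10 higher and 10 lower genes and Gm15609. The swim values of the 10 higher genes lie between -0.0762 and 0.247, and that of Gm15609, 0.60, is near its naive value.

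The cohort difference in the naive effect was itself tested, and 0 of 11341 genes passed an adjusted p of 0.05, with 385 (3.39%) at an unadjusted p under 0.05 (edgeR quasi-likelihood test). The 5 genes with the smallest p were Ppm1d, Rspo2, Lrrc4c, Poglut1 and Mvb12a. Lrrc4c, a postsynaptic adhesion protein that binds netrin-G1, was at 13.8, 8.05 and 20.4 CPM in the WT and 25.3, 30.2 and 32.9 CPM in the Shank3 libraries of cohort 1, and 32.3, 30.3, 32 and 27.9 CPM against 27.8, 24.9, 22.6 and 18.6 CPM in cohort 2. The Shank3 libraries lay above the WT libraries in cohort 1 and below them in cohort 2. Ppm1d, a phosphatase of the p53 response, had 22 counts in the Shank3 and 1 in the WT libraries of cohort 1, a ratio of 17.4 with an exact 95% binomial interval of 2.81 to 717, and 19 against 32 in cohort 2. Rspo2, an R-spondin that amplifies Wnt signals, went the other way, with 11 against 32 counts in cohort 1 and 41 against 26 in cohort 2. Poglut1 had 3 against 10 and 17 against 4 counts, and Mvb12a had 5 against 0 and 0 against 9.

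Pathways were read through 27 lists with 1073 genes, of which 965 were tested. The only member past the adjusted threshold was Ncam2. At an unadjusted p under 0.05, 42 were higher (4.35%, against 3.68% of all genes) and 6 lower (0.622%, against 1.08%), so the lists as a whole stood near the background. The median log2 fold change of the 965 genes was 0.0883, with 0.176 in cohort 1 and -0.00706 in cohort 2. List medians were above 0 in 23 of the 27 lists in cohort 1 and in 11 of 27 in cohort 2. The median of all genes was 0.0295 in cohort 1 and 0.0043 in cohort 2. The all-gene median differed by strand class, at -0.0242 for genes with an exon opposite an exon. The 4822 tested genes with no gene opposite had 0.0779, with 0.147 in cohort 1 and -0.0044 in cohort 2. Listed genes with no gene opposite had 0.102, near the value of that class. With groups at 0 counts set to a floor of 3 counts, and genes that gave no fold left out, a list median shifted by at most 0.03. For the members with an antisense or noncoding row on the other strand, 147 such rows were tested, and 117 of them held more counts than the listed gene, not divided by length. Of these rows 3 were higher and 2 lower at an unadjusted p under 0.05 (3.4%), and their median was 0.0151.

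**Figure D5:**
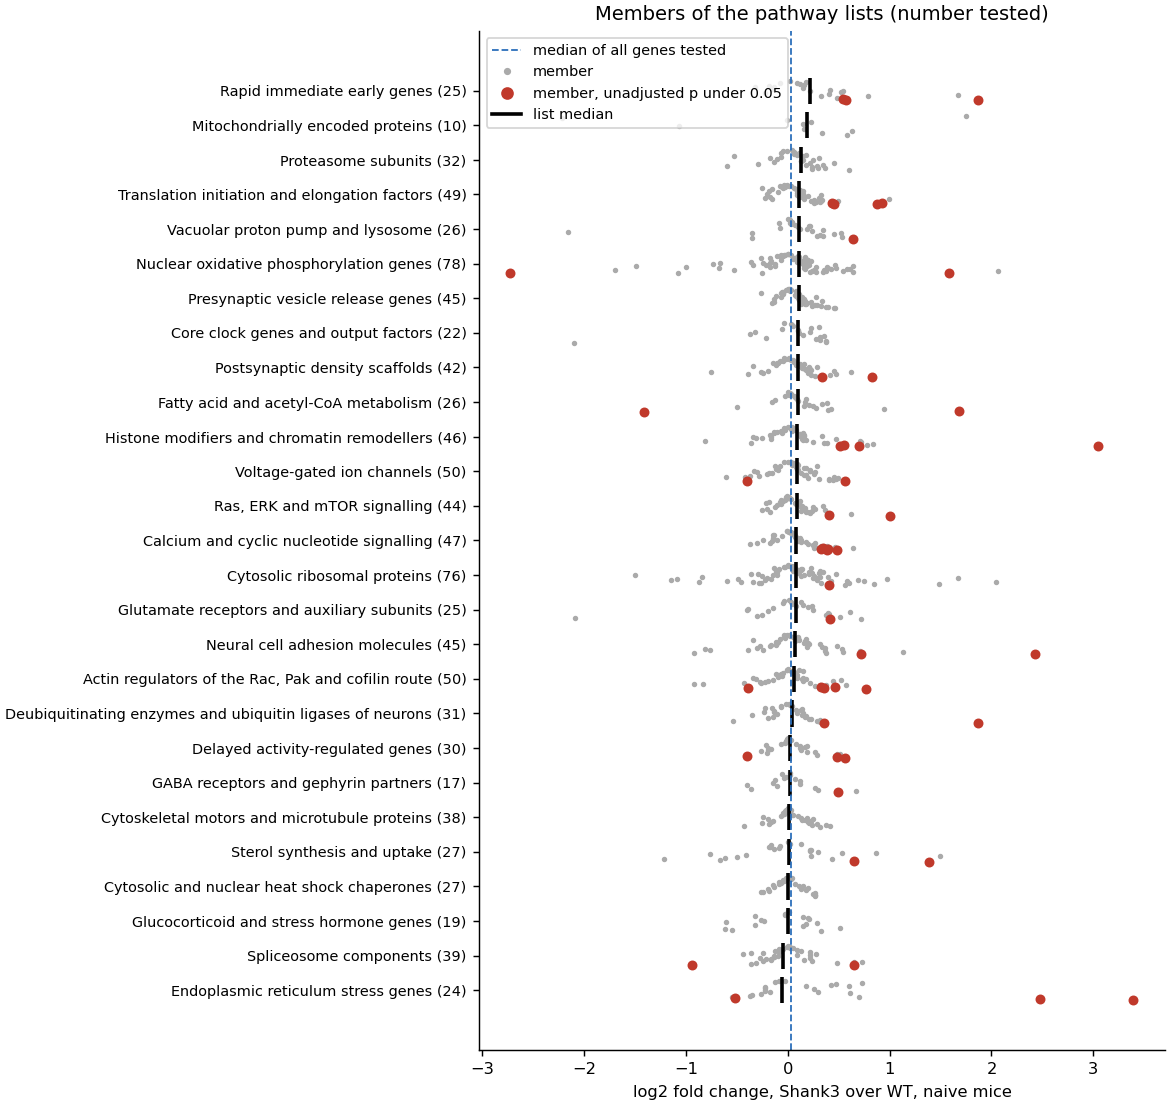
Log2 fold change of Shank3 over WT in naive mice for each tested member of the 27 pathway lists, with the number tested in parentheses. Red points have an unadjusted p under 0.05, black bars are list medians and the dashed line is the median of all genes, 0.0263; the list medians lie between -0.0559 and 0.221.

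At the excitatory synapse, 2 of 42 postsynaptic density scaffolds had an unadjusted p under 0.05 (4.76%, against 4.75% of all genes). These were the Shank3 row and Dlg2, the scaffold PSD-93. Dlg2 was at 81.3, 58.7 and 50.2 CPM in the WT and 98.1, 87.2 and 77.2 CPM in the Shank3 libraries of cohort 1, and 68.1, 79, 104 and 81.7 CPM against 102, 101, 83.1 and 98.8 CPM in cohort 2, and its genotypes overlapped in both cohorts, with a log2 fold change of 0.34 ± 0.14 (SE; adjusted p = 1). The sister scaffolds Shank1 and Shank2 had -0.022 ± 0.22 and 0.047 ± 0.22, Dlg4, the scaffold PSD-95, 0.056 ± 0.22, and Homer1, which links Shank proteins to metabotropic glutamate receptors, 0.12 ± 0.21. Their effects were all smaller than their SE. Of 25 tested glutamate receptor genes, only Gria2, the AMPA receptor subunit that limits calcium entry, had an unadjusted p under 0.05 (4%, against 4.75% of all genes). Its log2 fold change was 0.41 ± 0.18, with 0.69 in cohort 1 and 0.13 in cohort 2. The NMDA receptor subunits Grin1, Grin2a and Grin2b had 0.20 ± 0.31, 0.044 ± 0.19 and 0.029 ± 0.16. The 17 tested genes of GABA receptors and gephyrin partners, the inhibitory counterpart, had a median of 0.0199. Of 45 presynaptic vesicle release genes 0 had an unadjusted p under 0.05, with the smallest p in Sv2a, 0.0700, and a median of 0.105.

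The rapid immediate early genes, which neurons switch on within minutes of activity, had the highest median of the lists, 0.221, with 0.250 in cohort 1 and 0.0912 in cohort 2. The 19 members with no gene opposite had a median of 0.414, against 0.0779 for all tested genes of that class. Of 25 tested members 19 were above 0, against 6097 of 11341 over all genes, and 3 (12%, against 4.75% of all genes) had an unadjusted p under 0.05. These were Egr1, a zinc finger factor of neuronal plasticity, at a log2 fold change of 0.55 ± 0.24 (SE), Ier5 at 0.57 ± 0.23 and Btg2, an antiproliferative regulator of mRNA decay, at 1.87 ± 0.64, with adjusted p values from 0.911 to 1. Btg2 was at 0, 1.15 and 0 CPM in the WT and 2.02, 6.98 and 1.27 CPM in the Shank3 libraries of cohort 1, and 4.62, 3.95, 2.04 and 2.99 CPM against 1.33, 8.65, 4.75 and 11.5 CPM in cohort 2, and its genotypes were apart in cohort 1, by few counts, and overlapped in cohort 2. Ier5 differed by 1.14 in cohort 1 and 0.0053 in cohort 2. Better known members had wide errors: Fos had 0.41 ± 0.56, Arc 0.79 ± 0.63, Nr4a1 0.54 ± 0.68, Junb 0.22 ± 0.29 and Fosb 0.18 ± 0.63. The median of the list less that of all genes ran from 0.0279, in cohort 2 alone, to 0.32 over 31 alternatives, without a change of sign. After the swim the median genotype effect of the list was 0.15, also the highest of the lists, against -0.012 for all genes. The high median is thus not particular to naive mice. Among 30 delayed activity-regulated genes 2 were higher and 1 lower in naive mice at an unadjusted p under 0.05 (10%, against 4.75% of all genes). Plk2, a kinase of synaptic scaling, had 0.48 ± 0.20, Mbnl2, a splicing factor, 0.56 ± 0.21, and Kcna1, a potassium channel subunit, -0.40 ± 0.17. The naive median of that list was 0.0209.

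Actin regulators of the Rac, Pak and cofilin route, which lies downstream of synaptic scaffolds, had 50 tested members, 4 higher and 1 lower at an unadjusted p under 0.05 (10%, against 4.75% of all genes). Cfl2, a cofilin that severs actin filaments, had 0.77 ± 0.24 with an exon opposite 1700081N11Rik, Pak3, a kinase downstream of Rac, 0.46 ± 0.23, Rock2 0.36 ± 0.17 and Nckap1 0.33 ± 0.16. Wasf3 stood at -0.40 ± 0.19, although Nckap1 and Wasf3 encode parts of the same WAVE complex. The median of the list was 0.0634. That of its 28 members with no gene opposite was -0.0117, against 0.0779 for all tested genes of that class. Of 46 histone modifiers and chromatin remodellers 4 were higher at an unadjusted p under 0.05 (8.7%, against 3.68% of all genes): Hdac11 with 0.70 ± 0.28, Setd5 with 0.51 ± 0.21, Kdm5c, a demethylase of histone H3 lysine 4, with 0.55 ± 0.24, and Kdm6b, whose few counts gave 3.05 ± 1.31. The chromatin list had a median of 0.0925. None of these genes passed the adjusted threshold.

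In the protein synthesis and turnover lists, 4 of 49 translation factors were higher at an unadjusted p under 0.05 (8.16%, against 3.68% of all genes). Eif3g, a subunit of the factor that loads the small ribosomal subunit, had similar effects in the cohorts, 0.51 and 0.40, with 0.45 ± 0.15 over both. Its level was 41.5, 38 and 37.7 CPM in the WT and 49.5, 48.8 and 68.3 CPM in the Shank3 libraries of cohort 1, and 46.2, 46.1, 51 and 75.7 CPM against 66.2, 88.7, 60.6 and 71.6 CPM in cohort 2. The genotypes were apart in cohort 1 and overlapped in cohort 2. Eif2s2 differed by 1.91 in cohort 1 and -0.16 in cohort 2, Eif2b3 had 0.92 ± 0.44 and Pabpc1, the poly(A)-binding protein, 0.43 ± 0.19. Of 76 ribosomal protein genes only Rps23 had an unadjusted p under 0.05 (1.32%, against 4.75% of all genes), with 0.40 ± 0.20 and a list median of 0.0801. None of 32 proteasome subunits did, with a median of 0.130. Among 39 spliceosome genes Sf3b1 was higher and Sf3b4, at -0.94 ± 0.42, lower at an unadjusted p under 0.05 (5.13%, against 4.75% of all genes). The spliceosome list had a median of -0.0524. Among 31 deubiquitinating enzymes and ubiquitin ligases, 2 were higher at an unadjusted p under 0.05 (6.45%, against 3.68% of all genes). These were Mindy3 and Cul3, a scaffold of ubiquitin ligases, at 0.35 ± 0.16.

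Of 47 genes of calcium and cyclic nucleotide signalling 5 were higher at an unadjusted p under 0.05 (10.6%, against 3.68% of all genes) and 0 lower (against 1.08%). These were the calcineurin catalytic subunit Ppp3ca with 0.32 ± 0.14, the protein kinase A subunit Prkar2b with 0.48 ± 0.20, the adenylyl cyclase Adcy2 with 0.34 ± 0.16, and the phosphodiesterases Pde1a with 0.40 ± 0.16 and Pde4b with 0.38 ± 0.15. Pde4b was at 46.7, 44.9 and 40.8 CPM in the WT and 70.8, 50 and 79.7 CPM in the Shank3 libraries of cohort 1, and 50.8, 59.2, 59.9 and 67.8 CPM against 49, 81.1, 61.7 and 73 CPM in cohort 2, and the genotypes were apart in cohort 1 and overlapped in cohort 2. Ppp3ca differed by 0.64 in cohort 1 and by -0.000213 in cohort 2. Of 44 genes of Ras, ERK and mTOR signalling, 2 had an unadjusted p under 0.05 (4.55%, against 4.75% of all genes). These were Rasgrf2 with 0.41 ± 0.20 and Pik3cb with 1.01 ± 0.49. Of 50 voltage-gated channels 1 was higher and 1 lower at an unadjusted p under 0.05 (4%, against 4.75% of all genes). Kcnc1, a fast potassium channel, had 0.56 ± 0.25 and Kcna1 was on the lower side, as above. Adjusted p values of these genes were 1.

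Of 78 nuclear oxidative phosphorylation genes 2 (2.56%, against 4.75% of all genes) had an unadjusted p under 0.05, Ndufab1 and Ndufc1, both at few counts and in opposite directions, with 7 against 1 counts and 0 against 4 counts in cohort 1. Their list had 50 members above 0 and a median of 0.110. The 10 tested mitochondrially encoded genes had a median of 0.193, with -0.0317 in cohort 1 and 0.413 in cohort 2, and 0 at an unadjusted p under 0.05. Of these 10, 3 had a group at 0 counts and gave no fold, and without them the median was 0.223. The cohort medians thus rest in part on rows with few counts. Of 26 fatty acid genes 2 (7.69%, against 4.75% of all genes) had an unadjusted p under 0.05. Fads2, a desaturase, had -1.42 ± 0.49 and Hadhb, an enzyme of mitochondrial beta-oxidation, 1.68 ± 0.74. Of 26 proton pump and lysosome genes only Atp6v0b stood out, with a list median of 0.112. Heat shock chaperones (27 tested), glucocorticoid and stress hormone genes (19), clock genes (22) and microtubule motors (38) each had 0 genes at an unadjusted p under 0.05, with medians of 0.000276, -0.00161, 0.103 and 0.0161. Of 24 endoplasmic reticulum stress genes 2 were higher and 1 lower at an unadjusted p under 0.05 (12.5%, the highest share of the 27 lists, against 4.75% of all genes), with a median of -0.0559. Dnajb9, a chaperone of that compartment, had 10 counts against 0 in cohort 1, at least 2.63-fold higher against the floor of 3 counts, and 11 against 5 in cohort 2. Ppp1r15a had 4 against 0 and 7 against 5 counts, and Atf6, a sensor of unfolded proteins, was at -0.52 ± 0.25.

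No tested marker gene of another cell type passed the adjusted threshold. The row of Csf1r, a receptor of microglia, had 4938 counts in the WT and 5092 in the Shank3 libraries, with an exon opposite Hmgxb3, and a log2 fold change of -0.11 ± 0.20 (SE). The summed microglial markers were at 857 ± 213 CPM in the WT and 796 ± 159 CPM in the Shank3 libraries (SD, n = 7 each; exact two-sided permutation within cohort, p = 0.233), while P2ry12, C1qb and Itgam had 0 counts throughout. Sparcl1, an astrocyte gene, had 1068 and 1205 counts, at 0.087 ± 0.16. The interneuron rows with the most counts were Dlx1, opposite Dlx1as, with 350 counts in the WT and 312 in the Shank3 libraries (-0.35 ± 0.22), and Cck, the gene of cholecystokinin, with 231 and 204 (-0.22 ± 0.27). The summed interneuron markers differed by -10.8 CPM (Shank3 less WT). Gad1 and Gad2, the GABA-synthesizing enzymes of interneurons, had 19 and 23 counts in the WT and 55 and 49 counts in the Shank3 libraries, with log2 fold changes of 1.56 ± 0.98 and 0.93 ± 0.67 (SE; unadjusted p of 0.121 and 0.172). Calb2, the interneuron gene calretinin, had 2 counts in the WT and 17 in the Shank3 libraries, with an unadjusted p of 0.0386 and an adjusted p of 1. Slc17a7, the vesicular glutamate transporter of pyramidal neurons, was at 0.39 ± 0.22, and Camk2a, whose promoter drives the Cre, at 0.24 ± 0.18. The astrocyte transporter Slc1a2 was at 0.84 in cohort 1 and -0.16 in cohort 2 with an exon opposite Gm13872, and the oligodendrocyte gene Mbp at 0.28 ± 0.24.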

How the data were processed

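The authors deposited 1 table of raw whole-number gene counts per library, under 55470 Ensembl identifiers, of which 55229 were found in the GENCODE vM21 annotation of mm10. Per the labels, libraries were made with a stranded TruSeq mRNA kit and read as pairs of 100 bases, with a stated depth of 15 M (mega) reads; the counts sum to 0.884 to 1.81 M per naive library. The submitters' processing notes name Trimmomatic 0.39, FastQC, HISAT2 2.2.0, StringTie 2.1.3, Salmon 1.4, DESeq2 and mm10. Which tool made the counts, and its strand setting, are not given in the sources used here.

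Counts of all 36 libraries were modelled in R 4.3.3 with edgeR 4.0.16 (quasi-likelihood, robust, TMM scaling, the tool's filter on low counts) in 8 cells of genotype, treatment and cohort, with 28 residual degrees of freedom. The contrast was the mean of the naive effects of both cohorts. The Benjamini-Hochberg adjustment ran over 11341 genes. An SE is a log2 fold change, without its sign, over the root of its F statistic, and is too small for genes with few counts. Log2 CPM values used a prior count of 0.5. Library measures were tested by exact two-sided permutation of genotype within cohort (1400 arrangements, smallest p 0.00143). Count ratios have exact 95% binomial intervals, which cover counting error only, as PCR copies are not told apart. Libraries are not tied to animals in the labels, and p values thus measure only how libraries spread, which may be technical. Over 42 pairs of libraries of 1 group, chi-square per degree of freedom was 2.25 or above, and none was treated as a copy. The fits were tested on simulated counts.

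Members and gene lists were chosen with earlier results of these data known. Genes were named by rule: those past the adjusted threshold, the 10 of either sign with the smallest p and a mean log2 CPM of at least 3, 2 per list, 5 of either sign without overlap, 5 for each difference of effects, Shank3 and its neighbours within 10 Mb. Provisional names were left out of the rankings. Further list members at an unadjusted p under 0.05, well-known list members, the remaining genes without overlap and Gm15609 were named after their values were seen. A few list members and overlaps are not reported here. Alternatives covered DESeq2 1.42.0, limma 3.58.1, scaling, filters, subsets of libraries and covariates.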

Additional observations from a re-analysis of the deposited data

Results flagged for a closer look

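Each of the following libraries lay apart from the other 6 of its genotype by Dixon's criterion, in which the gap to the nearest library is divided by the range of the group. Of 78 groups looked at, 9 were set apart in this way, where chance gives about 1 in 20. Groups pooled both cohorts. Values are log2 CPM unless a percent is given.

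WT replicate 4 had the highest Acat2, at 4.14 against 3.05 in the next library (gap 0.59 of the range). WT replicate 1 had the lowest Atp6v0b, at 3.82 against 4.83 (0.63), and the lowest Ubxn7, at -1.85 with 0 counts against 1.37 (0.57). WT replicate 3 had the lowest Zfp451, at 2.71 against 3.41 (0.636), and the highest Pcgf1, at 4.67 against 4.14 (0.577). Shank3 replicate 2 had the lowest Ell2, at 3.07 against 3.89 (0.639). Shank3 replicate 7 had the lowest Osbpl8, at 3.15 against 4.02 (0.645), and the lowest Prpf40b, at 2.19 against 3.40 (0.617). Shank3 replicate 7 also had the highest share of ribosomal RNA, 38.6% against 13.5% in the next library (0.664).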

How the results depend on the processing

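The number of genes past the adjusted threshold, 1 in the report, was 7 without a low-count filter, 3 with the pair share as a covariate, 2 with limma voom quality weights, and 0 with library totals, a stricter filter, the 14 naive libraries alone, an additive cohort term, the replicate block, cohort 1 alone, cohort 2 alone, or genes with no gene opposite; Ncam2 was tested only with library totals among these. Leaving out single libraries gave 0 to 6: 0 without WT replicate 2, Shank3 replicate 2 or Shank3 replicate 5, 6 without WT replicate 3 and 2 without WT replicate 4. DESeq2 called 1 other gene, Gm49190.

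Genes higher at an unadjusted p under 0.05, 417 in the report, numbered 213 with library totals, 683 without a filter, 240 with the stricter one, 254 in the 14 naive libraries alone, 215 with the additive term, 222 with the replicate block, 118 in cohort 2 and 127 with no gene opposite, and 266 to 524 without single libraries; without Shank3 replicate 1 the count was 266. Genes lower, 122 in the report, numbered 291 without a filter, 72 with the stricter one, 236 with quality weights, 211 in cohort 1, 33 in cohort 2, 379 with the pair share, 79 with no gene opposite and 281 with the pair share in the 14 naive libraries, an alternative chosen after seeing the data; without single libraries they numbered 103 to 165. The cause of these shifts was not tested.

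The cohort difference passed for 3 genes and the naive less swim difference for 3 without a filter, and each for 0 to 1 without single libraries (1 without WT replicate 5 and 1 without WT replicate 3). Without Shank3 replicates 6 and 7 the genes without overlap were 49 higher and 25 lower, and with library totals 2 and 16; fewer libraries overlap less by construction. Eif2s2 reversed to -0.154 in cohort 2 alone.

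Without single libraries the Shank3 less WT difference ran from 91.8 to 205 CPM for pyramidal and from -91.8 to -50.0 CPM for hippocampal markers. Same-numbered libraries had correlations from -0.452 to 0.585. Differently numbered libraries were not compared, so these values cannot decide whether the numbers pair libraries. The replicate block left 129 genes lower. At 0.884 to 1.81 M counts per library, genes below a mean log2 CPM of 3 had a median SE of 0.52.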
